A study of Mus musculus with 12 samples.

Results

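Genes of the myelin sheath and the oligodendrocyte were followed in mouse striatum, in total RNA and in the RNA cross-linked to hnRNP H. They are Mbp, Mobp, Mal, Cldn11, Mog, Mag, Cnp, Ugt8a and Olig1, 9 of the 18208 genes in the RNA-seq table, taken by gene name. hnRNP H is an RNA-binding protein, and the RNA bound to it was collected by cross-linking and immunoprecipitation (CLIP-seq). Every pool came from wild-type C57BL/6J mice, 50 to 100 days old, the offspring of heterozygous Hnrnph1 mutant fathers and C57BL/6J mothers. All mice were injected with saline at 10 ml/kg on days 1 and 2. On day 3 the control mice had saline again and the others methamphetamine, a psychostimulant, at 2 mg/kg, all intraperitoneally. Whole striata were taken 30 min later. A pool held striata of 4 mice, 2 female and 2 male, from several litters, and each treatment had 3 pools. Each pool gave 1 RNA-seq and 1 CLIP library, so single animals cannot be told apart.

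Oligodendrocytes wrap axons of the central nervous system in myelin, a stack of lipid-rich membrane held together by a small set of very abundant proteins. The striatum is crossed by bundles of myelinated fibres, so bulk striatal RNA carries oligodendrocyte transcripts beside those of neurons and astrocytes. As background, hnRNP H recognises guanine runs in pre-mRNA and mRNA and acts in splicing and 3′ end processing. In bulk tissue, more oligodendrocytes and more RNA per oligodendrocyte cannot be told apart.

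Whole reads recovered from the RNA-seq table numbered 3935160 to 5091839 per library, and CLIP reads in peaks 423057 to 1635338. The libraries did not fall apart by treatment. On the first principal component, with 65.6% of the RNA-seq variance of 7853 genes, saline pools 1 and 3 and methamphetamine pool 2 (set A) lay opposite saline pool 2 and methamphetamine pools 1 and 3 (set B). The sets were defined from the data, and the labels name no batch that follows them. RNA-seq CPM are counts per 1000000 reads of an effective library size, the one implied by the deposited log2 values. Relative to the recovered reads, that size was 0.904, 1.01 and 0.860 for saline pools 1, 2 and 3. For methamphetamine pools 1, 2 and 3 it was 1.02, 0.897 and 1.02. Every set A library thus had an effective size below its recovered reads, and every set B library one above. CPM differences between the sets depend on this scale. Markers of striatal projection neurons, 9 of 9 measured, summed to 7554 to 8768 CPM in set A, while set B had 5484 to 6298. Those of cortical excitatory neurons, 6 of 6 measured, summed to 134 to 373 CPM in set A, while set B had 403 to 790. Those of astrocytes, 7 of 7 measured, summed to 2393 to 2678 CPM and 3546 to 3963 CPM in the same order. Choroid plexus markers summed to 4905 CPM in methamphetamine pool 2, but to 58.0 to 221 in the saline pools and at most 173 in set B. Schwann cell markers, of the myelin-forming cell of peripheral nerve, stayed at 25.2 to 48.2 CPM. The part of these cell types in the results on myelin genes was not tested.

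In total RNA the myelin genes were abundant, and Mbp led. The 9 genes together took from 0.451% of the reads in saline pool 1 to 1.20% in methamphetamine pool 1. Per kilobase of combined exon length, the log2 CPM averaged 9.29 ± 0.52 for Mbp (SD over 6 libraries), 7.84 ± 0.50 for Cnp and 7.60 ± 0.52 for Cldn11. Mobp (6.97 ± 0.59), Mag (6.75 ± 0.48), Olig1 (6.68 ± 0.36) and Mal (6.26 ± 0.54) followed on the same scale, and Mog (5.08 ± 0.74) and Ugt8a (3.66 ± 0.54) were lowest. Most neighbours in this order kept their places in every library: Mbp stood above Cnp, Cldn11 above Mobp, Mobp above Mag, Mal above Mog and Mog above Ugt8a in 6 of 6. Cnp stood above Cldn11 in only 3 of 6, and the difference of 0.24 was smaller than its SD of 0.35. Mag and Olig1 differed by 0.07 with an SD of 0.17, and Olig1 and Mal by 0.42 with an SD of 0.42.

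No member passed the test of methamphetamine against saline. At an adjusted p under 0.05 (limma, Benjamini-Hochberg over all genes), 0 of 9 members and 0 of 18208 genes (0.0%) passed. At an unadjusted p under 0.05, 0 of 9 members passed beside 276 of all genes (1.52%), and edgeR on the recovered reads also called 0 genes after adjustment and 109 before it. The change from saline to methamphetamine was above 0 for 9 of 9 members, as for 50.4% of all genes, with a median of 0.37 on the log2 scale against 0.00198 over all genes. These genes vary together across the libraries, so 9 like signs are not 9 separate observations. Markers of other cell types also leaned one way: 7 of 7 astrocyte genes (median 0.21), 6 of 6 microglial genes (median 0.09) and 5 of 6 cortical neuron genes (median 0.89) were above 0, and 0 of 9 striatal projection neuron genes (median -0.23). Their part in the members' values was not tested. The members' SEs ran from 0.26 to 0.43, close to the changes themselves, so missing the threshold does not show that the levels were alike. For every member the saline and methamphetamine pools overlapped, whereas 6.01% of all genes had groups that did not.

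Single saline pools set the size of this change. All 9 members were lowest in saline pool 1, which was the lowest library for 11.9% of all genes. Without that pool the median change over the members was 0.06. Without saline pool 3, where 6 of the 9 were highest, it was 0.72, and 6 members then had unadjusted p-values under 0.05 by limma (0.00853 for Cnp, 0.0117 for Ugt8a, 0.0152 for Mobp, 0.0223 for Mag, 0.0369 for Olig1 and 0.0409 for Cldn11), each with an adjusted p of 0.99963. Over the fits that left out 1 pool, 192 to 958 of all 18208 genes had an unadjusted p under 0.05 by limma. The count for the fit without saline pool 3 is not given here. That fit is named because its median change was the largest, so its p-values are a description.

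Mbp encodes myelin basic protein, which binds the cytoplasmic faces of the membrane and compacts them (chromosome 18, 82475146 to 82585637, plus strand, GRCm38). Its log2 CPM was 11.66, 11.93 and 12.98 in saline pools 1, 2 and 3, and 12.90, 12.30 and 12.48 in methamphetamine pools 1, 2 and 3. The saline pools spanned a wider range than the methamphetamine pools and enclosed all of them. The change was 0.37 ± 0.41 (SE), with an adjusted p of 0.99983 by limma, the value shared by all 9 members.

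Mobp encodes another small basic protein of compact myelin (chromosome 9, 120149707 to 120181484, plus strand). Its log2 CPM was 8.81, 9.40 and 10.32 in the saline pools and 10.28, 9.62 and 10.04 in the methamphetamine pools, in the same order of replicates. As for Mbp, the highest and the lowest library were both saline, and the change was 0.47 ± 0.36.

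Mal encodes a membrane proteolipid of compact myelin (chromosome 2, 127633226 to 127656695, minus strand). The log2 CPM was 6.85, 7.95 and 7.81 with saline and 8.33, 7.36 and 8.11 with methamphetamine. Saline pool 1 and methamphetamine pool 2 were low and methamphetamine pools 1 and 3 high, and the change was 0.40 ± 0.33. With the library set as a covariate it was 0.15.

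Cldn11 encodes claudin 11, which forms the tight junction strands of central myelin (chromosome 3, 31149920 to 31164324, plus strand). Its log2 CPM was 7.61, 8.41 and 8.75 with saline and 9.04, 8.32 and 8.90 with methamphetamine. The change was 0.49 ± 0.31, and methamphetamine pool 2 lay below saline pools 2 and 3.

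Mog encodes a glycoprotein of the outermost myelin surface (chromosome 17, 37010743 to 37023398, minus strand). The log2 CPM was 4.85, 6.24 and 5.55 with saline and 6.74, 5.27 and 6.46 with methamphetamine. Its libraries spanned 3.71-fold, the widest range of the 9 members, and the change was 0.61 ± 0.43. With the library set as a covariate the change in Mog was 0.21.

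Mag encodes a sialic acid-binding adhesion protein of the innermost membrane, which faces the axon (chromosome 7, 30899176 to 30914873, minus strand). Its log2 CPM was 8.00, 8.52 and 9.30 with saline and 9.23, 8.71 and 8.90 with methamphetamine. The saline pools again enclosed the methamphetamine pools, and the change was 0.34 ± 0.31.

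Cnp encodes a phosphodiesterase of non-compact myelin (chromosome 11, 100574904 to 100591729, plus strand). The log2 CPM was 9.01, 9.25 and 10.40 with saline and 9.94, 9.80 and 9.84 with methamphetamine. The methamphetamine pools lay close together, inside the range of the saline pools, and the change was 0.30 ± 0.33.

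Ugt8a encodes the enzyme that makes galactosylceramide, a main myelin lipid (chromosome 3, 125865271 to 125938619, minus strand). Its log2 CPM was 5.06, 5.46 and 6.48 with saline and 6.23, 5.67 and 6.14 with methamphetamine, a change of 0.35 ± 0.34. Olig1 encodes a basic helix-loop-helix transcription factor of the oligodendrocyte lineage (chromosome 16, 91269772 to 91271933, plus strand). The log2 CPM of Olig1 was 7.23, 7.60 and 8.31 with saline and 7.96, 7.80 and 7.86 with methamphetamine, a change of 0.16 ± 0.26. Olig1 had the narrowest range of the 9, at 2.13-fold, and its change was -0.08 without saline pool 1.

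**Figure D1:**
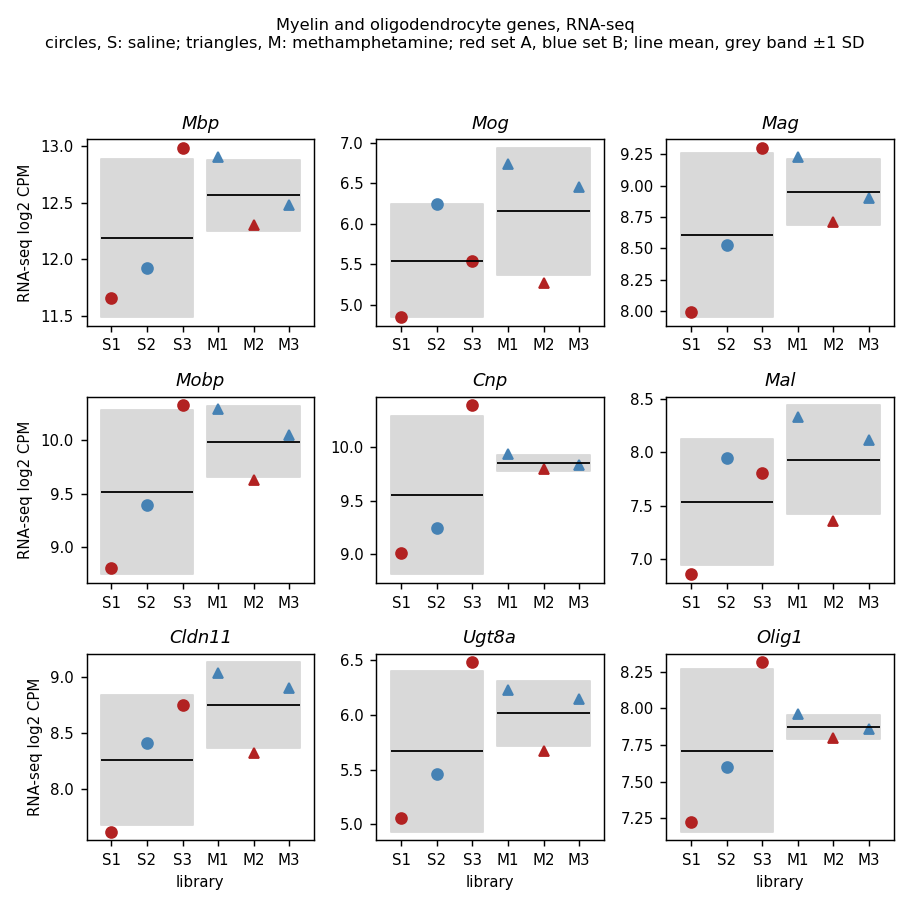
RNA-seq log2 CPM (y axis, a separate range for each gene) of the 9 genes in the 6 libraries (x axis), with circles for saline, triangles for methamphetamine, red for set A and blue for set B; lines are group means and grey bands ±1 SD. Saline pool 1 is the lowest point in all 9 panels, and the groups overlap in each.

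On the scale of effective library sizes, the members followed the library sets to different degrees. Mog was 1.26 higher in set B than in set A on the log2 scale, at 6.24 to 6.74 against 4.85 to 5.55. Mal was 0.79 higher, at 7.95 to 8.33 against 6.85 to 7.81. For these 2 of 9 members the sets did not overlap, as for 19.9% of all genes with set B higher. Cldn11 was 0.56 higher with overlap, so 3 of 9 members lay at least 0.5 higher in set B, beside 18.7% of all genes. Mobp (0.32), Mag and Ugt8a (0.21 each), Mbp (0.12), Olig1 (0.03) and Cnp (-0.06) differed less between the sets. The longest transcripts of Mog, Mal and Cldn11 had a GC content of 50.0%, 48.9% and 50.9%. Those of Cnp and Olig1 had 54.8% and 61.1%. Mbp, at 51.0%, was close to Cldn11, Mobp had 53.3%, and Mag, at 57.6%, lay above Cnp. Ugt8a, with 38.0%, was the most AU-rich member. Over all genes with a mean log2 CPM above 4 the median GC content was 51.4%. It was 48.2% for the 2070 of them that were higher in set B without overlap and 55.5% for the 1565 that were lower. The part of base composition in the set differences was not tested. Within the sets the comparison of treatments rests on 1 pool against 2 and has no test of its own. In set A methamphetamine minus saline ranged from -0.10 (Ugt8a) to 0.13 (Cldn11), and in set B from 0.28 (Mal) to 0.77 (Mbp).

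None of the genes in the wider oligodendrocyte lists passed the adjusted threshold. Of 22 myelin protein genes, which include 7 of the 9 members, 21 had a change above 0, with a median of 0.35 and 0 past the adjusted threshold. Ermn, a cytoskeletal protein of myelinating oligodendrocytes, had the most positive value (0.83 ± 0.55 by limma) and Ppp1r14a, an inhibitor of a protein phosphatase, the most negative (-0.42 ± 0.32). In 8 of the 22 set B was higher without overlap, beside 19.9% of all genes. In 1 it was lower without overlap, beside 18.9% of all genes. Of 8 enzymes of myelin lipid metabolism, 8 had values above 0 and 0 passed, with Elovl7, a fatty acid elongase, at 1.33 ± 0.58 and Galc, which degrades galactosylceramide, at 0.12 ± 0.32. Elovl7 had an unadjusted p of 0.0471 but as few as 2 reads in saline pool 1. Of 10 transcription and RNA factors, 7 were above 0 and 0 passed. They ranged from Zfp488, a zinc finger factor of the lineage (0.90 ± 0.32, unadjusted p = 0.0195, adjusted p = 0.99983 by limma), to Qk, the RNA-binding protein quaking (-0.17 ± 0.21). Of 10 genes of oligodendrocyte precursors, 8 were above 0 and 0 passed, from Vcan, a matrix proteoglycan (0.30 ± 0.37), to Cspg4, the NG2 proteoglycan (-0.01 ± 0.21). Between the library sets, 9 of 10 precursor genes were higher in set B (4 without overlap, median 0.45). Of the 10 factors, 3 were higher in set B (0 without overlap, median -0.11). Over all genes the median was -0.03, and 19.9% were higher in set B without overlap. Whether the lists differ was not tested.

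**Figure D2:**
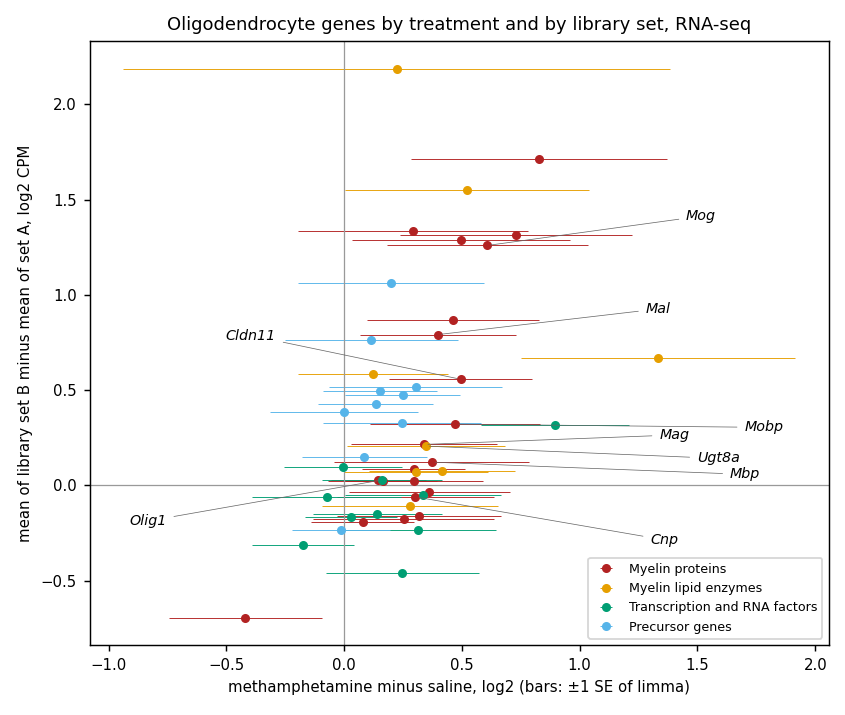
Each point is a gene of the 4 oligodendrocyte lists (1 gene is not shown), with the log2 change from saline to methamphetamine on the x axis (bars ±1 SE of limma) and the set B minus set A difference in log2 CPM on the y axis. The 9 members are labelled; most points lie to the right of 0, and Mog (1.26) and Mal (0.79) stand high on the y axis while Cnp (-0.06) is near 0.

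Outside the 9 members, the genes most like their mean profile were Ttyh2, Ndrg1, Pakap, Rassf2 and Prox1. Likeness is Pearson's r over the 6 libraries with the mean centred log2 CPM of the members, among 7844 genes, given as a description. The r was 0.995 for Ttyh2 and 0.984 to 0.991 for the other 4. Ttyh2 read 5.77, 6.51 and 6.96 log2 CPM with saline and 7.10, 6.40 and 6.85 with methamphetamine, so it too was lowest in saline pool 1.

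In the CLIP data the 9 genes held 312 of 147438 peak positions and 6699 reads, 0.120% of all reads in peaks. Reads were few at most positions, and 10 positions held 41.9% of them. Intronic positions carried 57.3% of the members' reads and 3′ UTR positions 22.9%. Over all positions these shares were 70.4% and 8.16%. The members' intronic share leaves out 1146 reads at 4 positions of Mag, described below. They touch an intron between coding exons but count as exonic, because a retained-intron transcript covers them. By library the members' 3′ UTR share ran from 10.6% in saline pool 1 to 29.1% in methamphetamine pool 1. Without Mbp the share was 15.9% in all, and 7.70% to 22.8% in the same 2 libraries. Reads in peaks are not corrected for input RNA here. Some neighbouring positions held near-equal counts, as with 232 and 242 reads in Mobp or 94 and 95 in Cldn11, and others did not, as with 404 and 81 in Mobp. Whether a fragment that spans an edge was counted on both sides is not given in the sources used here.

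Mag had the most-read position of all 312. It lies at chromosome 7, 30908777 to 30908876, and held 95, 11 and 141 reads in the saline pools and 17, 107 and 46 in the methamphetamine pools. The next position, 30908877 to 30908976, held 86, 10 and 132 with saline and 21, 84 and 49 with methamphetamine. The first lies in, and the second reaches 1 base beyond, an intron of 353 bases (30908623 to 30908975) between coding exons of Mag, which GENCODE also lists inside an exon of a retained-intron transcript. The 4 positions that touch this intron held 1146 reads, 70.0% of all Mag reads. The sequence of this stretch is shown because it is dense in guanine runs. Each line gives 30 bases from 1 of the 3 upstream positions, on the transcript strand, 5′ to 3′, with runs of at least 3 guanines in capitals; the full positions, from the most upstream to the most downstream, hold 9, 7, 8 and 1 such runs.
Mag, 7:30908934-30908963: gcGGGttGGGacaGGGGcGGGGactggaag
Mag, 7:30908815-30908844: ttcggaagatGGGGGGGGGGGtacctagag
Mag, 7:30908716-30908745: aggacccaGGGaaGGGGGcctggaaggtgg
Of the 4 positions only the most downstream, where the intron meets the next coding exon, is in the authors' peak list for methamphetamine.

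The treatments overlapped at these Mag positions. The change at the most-read position was 0.14 ± 0.59 on the log2 scale and at the next 0.20 ± 0.54, each with an adjusted p of 0.99983 by edgeR. Over set A the most-read position averaged 95.2 CLIP CPM (reads per 1000000 reads in peaks of the library) against 40.7 in set B, and the Mag RNA level differed by 0.21 on the log2 scale in the other direction. The sign of the change at both positions depended on single pools. Without saline pool 2 it was -0.22 and -0.17.

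In Mobp the reads gathered at the start of the first intron. The position at chromosome 9, 120150508 to 120150607, starts 711 bases after the first exon and held 148, 13 and 120 reads with saline and 25, 83 and 15 with methamphetamine. Set A averaged 99.5 CLIP CPM there and set B 27.8, a ratio of 3.58, and the treatments overlapped (-0.68 ± 0.57, adjusted p = 0.99983 by edgeR). A further pair of positions begins 11 bases after the same exon and held 232 and 242 reads. The members' smallest p-values were also in Mobp. The intronic position 120151308 to 120151407 held 9, 3 and 20 reads with saline and 18, 15 and 7 with methamphetamine, a change of 0.98 ± 0.52 with an unadjusted p of 0.099 by edgeR. At 120151208 to 120151307 the unadjusted p was 0.11. The 3′ UTR position 120180508 to 120180607 held 4, 3 and 33 against 19, 12 and 15 reads, a change of 1.10 ± 0.71. This last position is in both of the authors' lists, and its 4 guanine runs include those printed here.
Mobp, 9:120180578-120180607: ggccttgtgctGGGagccGGGGtggccaag
A position 31 bases further on is listed under the name Mobp, but its identifier is that of Gm38642, a transcript that overlaps the Mobp 3′ UTR, so the reads of the pair cannot be assigned to 1 gene.

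Across the count table, 10358 positions had enough reads for a test, and 19 of them were members' positions. Of these 19, 0 passed an adjusted p under 0.05, as did 0 of 10358 (0.0%), and 0 had an unadjusted p under 0.05, beside 347 of all positions (3.35%). DESeq2 called 0 positions after adjustment and 345 before it. In 1 of the 19 the saline and methamphetamine pools did not overlap, beside 7.49% of all positions. That is the Mobp position at 120151208, with 6.65, 7.09 and 11.0 CLIP CPM against 16.5, 13.3 and 11.8.

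**Figure D3:**
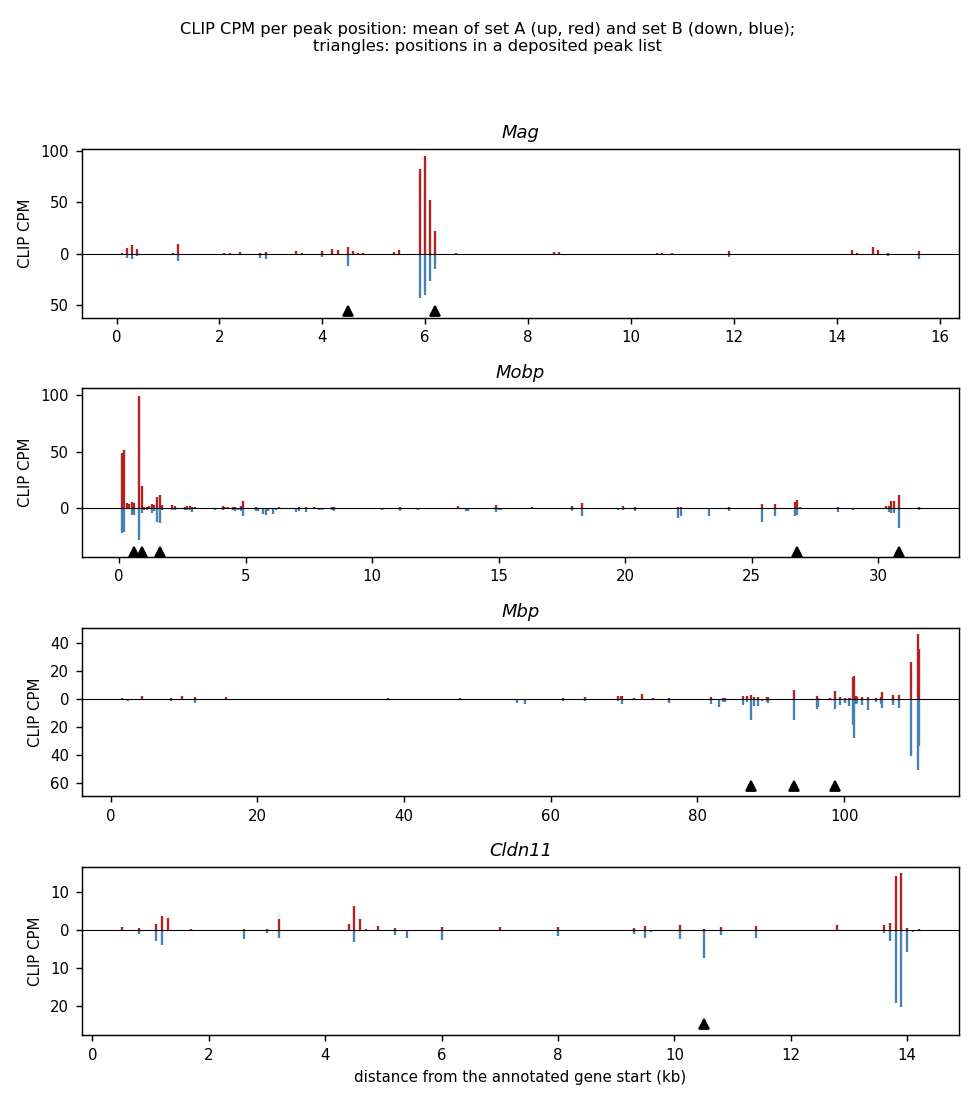
CLIP CPM at each peak position (y axis; mean of set A upward in red, mean of set B downward in blue) along Mag, Mobp, Mbp and Cldn11 by distance from the gene start in kb (x axis); triangles mark positions in a deposited peak list. Mag reads pile up near 6 kb, Mobp reads within the first kb, and Mbp and Cldn11 reads at the 3′ end, and the highest bars carry no triangle.

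The remaining members differed in where their reads lay. Mbp, with 66 positions, had 45.7% of its reads in the 3′ UTR and 52.7% in introns, and Cldn11 had 50.0% in each. Mog had 64.2% in the 3′ UTR, and Olig1, which has no intron, had 100%. Mobp (85.4%), Ugt8a (75.8%), Cnp (68.5%) and Mal (56.1%) had most in introns. Of the 340 Cnp reads, 199 came from 1 position counted as intronic, at chromosome 11, 100584805 to 100584904. It held 34, 3 and 112 reads with saline and 17, 28 and 5 with methamphetamine. The nearest exon of a protein-coding transcript (100580347 to 100581728) ends 3077 bases before it and holds the 3′ UTR positions of Cnp. The position counts as intronic because the annotated gene runs to 100591729. That position averaged 43.1 CLIP CPM in set A and 11.4 in set B. Not every much-read position was higher in set A. The most-read Mbp position, in the 3′ UTR, averaged 45.8 CLIP CPM in set A and 50.4 in set B. The most-read Cldn11 position, also in the 3′ UTR, averaged 14.9 and 20.4. The share of all positions higher in set A is not given here. In 1 Ugt8a position, with 18 reads, the midpoint lay outside the annotated gene.

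Most of the members' exonic positions held a guanine run, as did most of those of other genes. Sequence was read for positions that lie within 1 exon of a transcript. On the transcript strand, GGG (which includes longer runs) was present in 39 of 52 such members' positions, 75.0% (Wilson 95% interval 61.8 to 84.8%), and in 70.9% of 24074 such positions of all genes. Runs of at least 4 (GGGG) were present in 26.9% of the former and 36.5% of the latter. In the 3′ UTR alone GGG was present in 74.4% of 39 members' positions and 63.6% of 12725. Of the members' listed peaks with sequence, 5 of 7 held GGG (71.4%, interval 35.9 to 91.8%), against 81.7% of 3897 listed peaks. The intervals cover counting error only. A match is a description and not a binding site. The longest run, of 13 guanines, lay in the Mog 3′ UTR, and Cldn11 and Cnp windows are shown beside it and the listed Mal window for the range of run lengths.
Mog, 17:37011083-37011112: tatcaatgtGGGGGGGGGGGGGtcaggaac
Cldn11, 3:31163791-31163820: GGGaacacGGGtGGGaGGGGaactcagagc
Cldn11, 3:31163844-31163873: ttttataagttgaGGGGttGGGtgtctttt
Cnp, 11:100580623-100580652: ggtgagctcccccGGGGcaagctctattcc
Mal, 2:127633284-127633313: aaagaggcaaggaaGGGtgactaagaggaa
The Cldn11 windows come from neighbouring positions with 94 and 95 reads, and the Cnp window from a coding position with 32. The Mog position held 2, 0 and 9 reads with saline and 20, 6 and 0 with methamphetamine.

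The authors' deposited peak lists hold few of these positions. By gene name, 12 of 9903 positions in the methamphetamine list belong to 6 of the 9 genes (Cldn11, Mag, Mal, Mbp, Mobp and Mog). In the saline list 10 of 9537 belong to 4 (Mal, Mbp, Mobp and Olig1). Of 18 distinct positions 4 are in both lists, which is 4 of 12 in one and 4 of 10 in the other. Cnp and Ugt8a have none. In the methamphetamine list 8 lie in introns and 4 in 3′ UTRs, and in the saline list 4 and 6, as the authors' deposited tables give the regions. Their signal value in the authors' deposited tables ran from 0.93 to 1.90 in the methamphetamine list, whose median is 1.60, and from 0.83 to 1.68 in the saline list, whose median is 1.68. The lists and the counts do not rank alike. Of the 10 members' positions with the most reads 0 are in a list, and of the top 20 there are 4. The 1 list per treatment leaves no replicate. The Mbp position listed for methamphetamine at chromosome 18, 82562447 to 82562546, for instance, held 25 and 10 reads in methamphetamine pools 1 and 3, 8 in saline pool 1 and 0 in the other 3 libraries.

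Summed over the positions of a gene, CLIP reads showed no treatment difference past the test. For the 8 members with enough reads, 0 passed an adjusted p under 0.05 beside 0 of 8185 genes (0.0%), and 0 an unadjusted p under 0.05 beside 429 of all genes (5.24%). DESeq2 called 0 genes after adjustment and 397 before it. Mal was closest, with 24.7, 26.0 and 26.9 CLIP CPM in the saline pools and 99.0, 37.8 and 33.6 in the methamphetamine pools. Its groups did not overlap, as for 9.26% of all genes, and the change was 1.14 ± 0.52 (unadjusted p = 0.057, adjusted p = 0.883 by edgeR). It was 0.44 without methamphetamine pool 1, and without methamphetamine pool 3 the unadjusted p was 0.0353 for Mal and 0.0377 for Mog by edgeR. Over the fits that left out 1 pool, 222 to 922 of all genes had an unadjusted p under 0.05 by edgeR. The Mal sums are 228 reads in all, from 11 in saline pool 2 to 90 in methamphetamine pool 1.

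Methamphetamine pool 1 was the highest CLIP library for 5 members. Mog read 3.80, 9.45 and 14.7 CLIP CPM with saline and 80.3, 12.2 and 5.04 with methamphetamine, so the pool stood far above the other 5. The Mog change of 1.82 ± 0.97 became -0.10 without it. Mbp read 175, 213 and 239 CLIP CPM with saline and 637, 229 and 205 with methamphetamine. The change in Mbp was 0.78 ± 0.49 with that pool and 0.02 without it. Mobp read 325, 220 and 438 against 541, 424 and 227 CLIP CPM, a change of 0.28 ± 0.41, and -0.04 without the pool. Ugt8a read 8.54, 14.2 and 19.0 against 33.0, 11.2 and 6.72 CLIP CPM, a change of 0.32 ± 0.67, and -0.63 without it. The same pool had the largest share of all its CLIP reads in 3′ UTRs, 11.3% against 6.37% to 8.24% in the other 5 libraries. The part of this in the members' values was not tested.

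The other members were not highest there. Mag read 303, 189 and 349 CLIP CPM with saline and 168, 375 and 249 with methamphetamine (-0.10 ± 0.38), and methamphetamine pool 1 was its lowest library. Cnp read 47.5, 30.7 and 96.0 against 55.0, 50.0 and 35.3 CLIP CPM (-0.32 ± 0.46, and 0.18 without saline pool 3, its highest). Cldn11 was steadiest, within 2.00-fold, at 57.9, 68.5 and 91.1 against 93.5, 56.1 and 113 CLIP CPM (0.27 ± 0.41). Olig1, with 54 reads over 3 positions, was too sparse for the test, at 6.65, 4.73 and 12.8 against 7.70, 15.3 and 3.36 CLIP CPM.

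**Figure D4:**
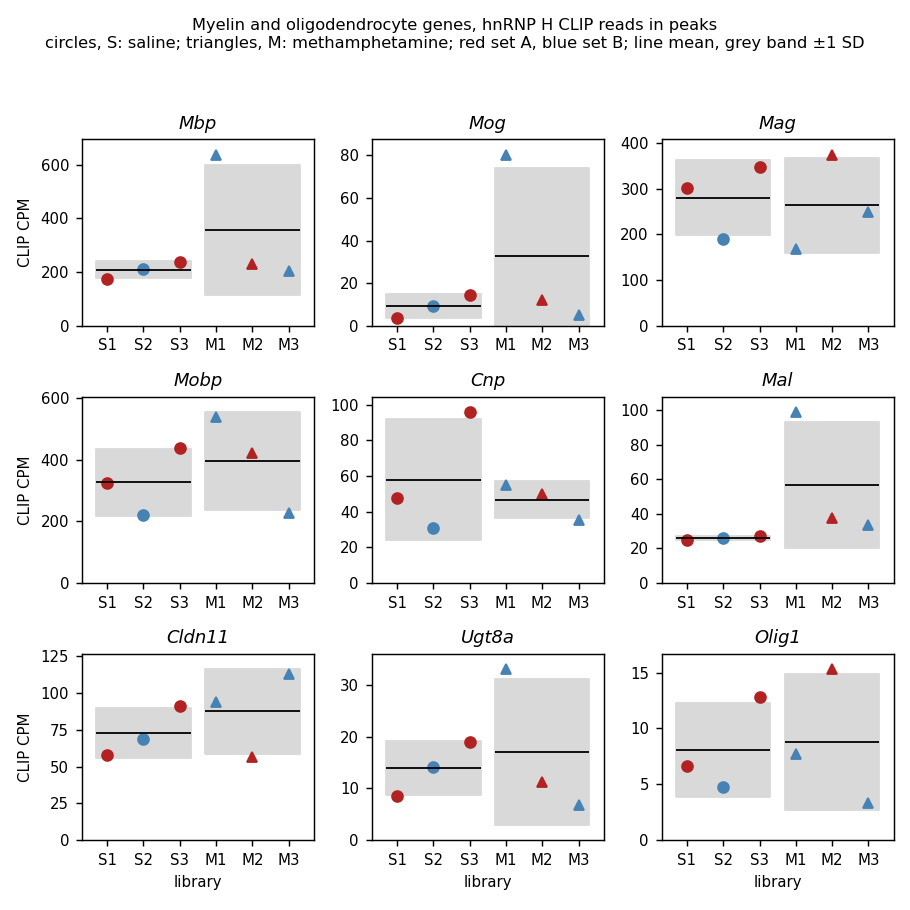
CLIP CPM, summed over the peak positions of each gene (y axis from 0), in the 6 libraries (x axis), with circles for saline, triangles for methamphetamine, red for set A and blue for set B; lines are group means and grey bands ±1 SD. Methamphetamine pool 1 is highest for Mbp (637), Mog (80.3), Mobp (541), Mal (99.0) and Ugt8a (33.0), and lowest for Mag (168).

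Set against their RNA, all 9 members carried fewer CLIP reads than the median ranked gene. Beside genes of like RNA level they fell on both sides, as given below. The ratio was taken within a pool, as log2 CLIP CPM minus log2 CPM of the RNA, for 10206 genes with at least 20 CLIP reads. That limit is on CLIP reads alone, so genes with few CLIP reads are missing from the ranking. Its effect on the median gene was not tested. It averaged -2.22 at the median member, against -0.36 at the median gene. Mbp took 0.541% of all RNA-seq reads but 0.0284% of CLIP reads. Its ratio was -4.39 ± 0.52 (SD, n = 6 pools), and 2.18% of genes were lower. Olig1 (-4.76 ± 0.67, 1.35% lower) and Cnp (-4.07 ± 0.42, 3.06% lower) lay in the same range. Mal (-2.54 ± 0.62), Cldn11 (-2.22 ± 0.28), Mog (-2.19 ± 1.23) and Ugt8a (-2.02 ± 0.71) formed a middle group, with 14.7% to 22.1% of genes lower. Mobp (-1.32 ± 0.61, 33.4% lower) and Mag (-0.75 ± 0.72, 43.2% lower) lay nearest the median gene.

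The ratio was lower among genes with more RNA, with a median of -1.28 among genes within 0.5 log2 CPM of Mog and -2.05 among those within 0.5 of Mobp, so each member was also set beside genes within the same distance of its own level. There Mag exceeded 76.7% of 283 genes and Mobp 74.0% of 127. Cldn11 exceeded 45.1% of 390, Mal 35.3% of 742, Ugt8a 34.8% of 1695 and Mog 31.3% of 1691. Cnp exceeded 15.4% of 130 and Olig1 5.60% of 714. Mbp had only 6 genes at its level and exceeded each of them. Lists of other cell types had median ratios on both sides of the median member, from -3.07 for striatal projection neurons and -2.43 for astrocytes to -1.25 for microglia, -0.62 for endothelial cells and 0.62 for cortical excitatory neurons. The oligodendrocyte precursor list had a median of 0.32. Introns are counted in the CLIP sums and the values are not divided by length, so the order across genes is a description. Olig1 has no intron to count, since its exons cover all 2162 bases of the gene.

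Between treatments the ratio of each member overlapped. Of 9 members 0 passed an adjusted p under 0.05 (0.0% of 10206 genes) and 0 an unadjusted p under 0.05, beside 360 of all genes (3.53%) by limma. All 9 had overlapping groups, beside 8.10% of genes without overlap. The change was above 0 in 3 of 9 members, Mbp, Mog and Mal, beside 54.9% of all genes. The changes ran from -0.48 ± 0.65 in Cnp to 0.54 ± 0.62 in Mal.

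**Figure D5:**
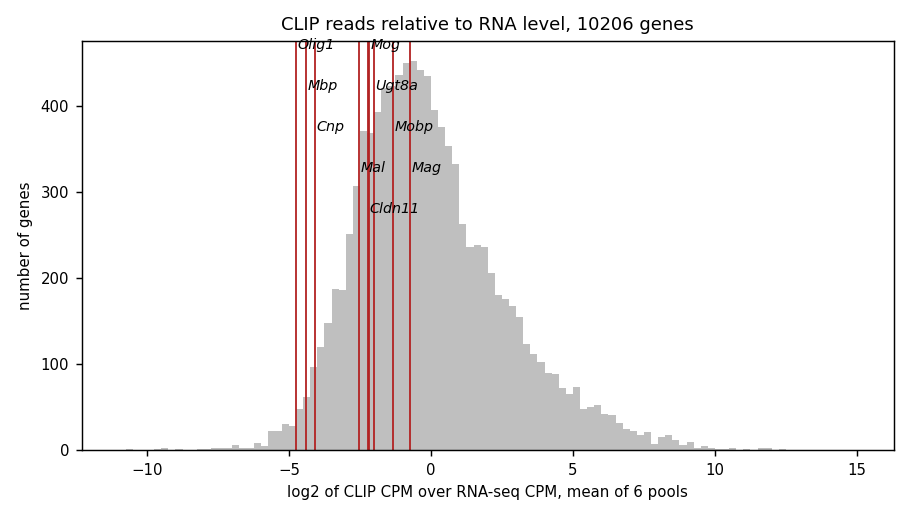
Number of genes (y axis) by the log2 ratio of CLIP CPM to RNA-seq CPM, mean of 6 pools (x axis), for 10206 genes in grey, with a red line for each of the 9 genes. All 9 lines lie left of the median gene at -0.36, from Olig1 (-4.76) to Mag (-0.75).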

How the data were processed

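The authors deposited RNA-seq values in log2 CPM, made with voom per the labels. They deposited CLIP data as whole-number counts per peak position, per the file headers. For each peak the 2 lists deposited by the authors hold a signal, treated as a score, a p-value and a q-value; the test behind them is not given in the sources used here. The submitters' processing notes name Trimmomatic, UMI-tools, STAR, bedtools, Subread, featureCounts, limma, edgeR and mm10, with no role or version. Whether counting used strand is not given in the sources used here.

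Each of 147438 distinct positions of 172271 lines was used once. Whole reads were recovered from 100% of the log2 values, within 0.1 read, with an offset of 0.5. RNA-seq was fitted with limma 3.58.1 (eBayes with trend) in R 4.3.3, CLIP positions and sums per gene with edgeR 4.0.16 (TMM, filterByExpr, quasi-likelihood), and the ratio with limma and an offset of 0.5 reads, all over the whole table with Benjamini-Hochberg adjustment. DESeq2 1.42.0 was an alternative. Changes are methamphetamine minus saline, as log2 with the SE. The p-values set a change against an estimated variance, with pools as the only replicates. In limma that variance is moderated over all genes, and in edgeR it includes counting variance. Each type of fit was also run on simulated data, where most changes of the smaller simulated size were missed.

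Regions are those of GENCODE M21 (GRCm38) at a position's midpoint, and sequences were read from its transcripts. GC content was known for 98.46% of genes. The members, the lists and the library sets were chosen with earlier results of these data known. All 9 members are named; of each list, the gene with the most positive and the one with the most negative change; of the members' positions, the 3 with the most reads and the 3 with the smallest p; and the 5 genes most like the members. Positions outside this rule (the Cnp, Mbp, Mog and second Mobp positions) were chosen after their values were seen. Mutant samples were not analysed here.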

Additional observations from a re-analysis of the deposited data

How the results depend on the processing

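Under every alternative run, 0 members passed an adjusted p under 0.05 in RNA-seq, CLIP positions, CLIP sums per gene or the ratio. Without a filter on low counts edgeR called 414 CLIP positions, 0 of them members', and the 2 Mag positions were at -0.2218 and -0.2208 in place of 0.14 and 0.20; the cause was not tested. With the library set as a covariate the Mag sum was at 0.1147, the median ratio change and the Mobp ratio at 0.0072 and the Olig1 ratio at 0.1807. With a q-value under 0.01 the saline list kept 6 of its 10 positions. Genes with at least 100 CLIP reads gave no ratio for Ugt8a and Olig1. Leaving out 1 pool at a time moved the change in Olig1 RNA from -0.0822 to 0.4624. It moved the 2 Mag positions from -0.2164 to 0.4971 and from -0.169 to 0.4879. For CLIP sums per gene it gave -0.1017 to 2.3463 for Mog, -0.4188 to 0.1267 for Mag, -0.0375 to 0.5453 for Mobp, -0.6154 to 0.1815 for Cnp and -0.6261 to 0.6555 for Ugt8a. For the ratio it gave -0.3459 to 0.2335 for the median change, -0.1381 to 0.4656 for Mbp, -0.3386 to 1.4114 for Mog, -0.4978 to 0.1599 for Mobp, -0.8005 to 0.2335 for Ugt8a and -0.6796 to 0.3092 for Olig1. The median change of the 9 members in RNA-seq stayed above 0, at 0.0573 without saline pool 1 and 0.7245 without saline pool 3.

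The replicate numbers did not pair the pools: the deviations of same-numbered pools correlated at -0.35, -0.82 and -0.49 in RNA-seq and at -0.36, -0.54 and -0.09 in CLIP positions. With the replicate number as a block 0 features passed the adjusted threshold in any of the 4 comparisons, and those at an unadjusted p under 0.05 numbered 144 in place of 276 in RNA-seq, 127 in place of 347 for CLIP positions, 182 in place of 429 for sums per gene and 283 in place of 360 for the ratio. Over all alternatives these unadjusted counts ran from 109 to 958, 127 to 6792, 182 to 993 and 159 to 716. Depth limits the CLIP tests: 19 of the members' 312 positions had enough reads for one.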
